A study of Mus musculus with 4 samples.

Results

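The genes described here are 6 connexin genes (Gja1, Gja4, Gjb2, Gjb6, Gjc1 and Gjd2) and the pannexin gene Panx1. They were taken by symbol from a table of 23240 rows of mouse RNA-seq counts, and all 7 symbols were found, on 1 row each. The cells came from cortices at embryonic day 15.5. Heterozygous Nestin-GFP mice had been crossed with homozygous DCX-mRFP mice, and embryos that carried both reporters supplied the cells of both groups. Neurons were the cells sorted for both colours (2 libraries), and neural progenitor cells (NPCs) were those sorted for green alone (2 libraries). Nestin is an intermediate filament of progenitors and doublecortin (DCX) a microtubule-binding protein of young neurons. The libraries of a group are labelled as duplicates, with no word on litters or on how many embryos were pooled. The p-values thus cover the spread between such duplicates alone, which can be technical.

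Connexins assemble into hemichannels in the cell membrane. Hemichannels of neighbouring cells dock to form gap junctions, through which ions and small molecules pass. In the embryonic cortex, gap junctions are known to couple radial glia, the main progenitors, and to serve as adhesive contacts for neurons that migrate along radial fibres. Pannexins have a similar fold, but are known mainly as channels of the single membrane that release ATP.

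Gja1 and Gja4, with Gjb2 and Gjb6 at trace levels, were lower in neurons than in NPCs, by 8.06-fold for Gja1 and 20.3-fold for Gja4. Gjc1 was also lower in neurons, by 1.39-fold. Panx1 was 2.35-fold higher in neurons, and Gjd2 did not pass the test. Levels are given in CPM (each library's counts scaled to a common total, with TMM factors), changes as log2 of neurons over NPCs ± standard error, and calls by edgeR's quasi-likelihood test at an adjusted p of 0.05 over all 15292 genes tested. These cell groups differ widely, and 72.6% of all genes tested were called, 35.8% higher in neurons and 36.9% higher in NPCs, so a call by itself does not set these genes apart. With library size as the only scaling, the calls split into 3840 higher in neurons and 7610 higher in NPCs, against 5467 and 5641 with TMM factors. Of the 5 genes that passed the low-count filter in both groups, 4 were called. The 2 others, Gjb2 and Gjb6, passed it through their NPC libraries alone. The groups did not overlap for any of the 7 genes, as for 86.0% of all genes tested.

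**Figure D1:**
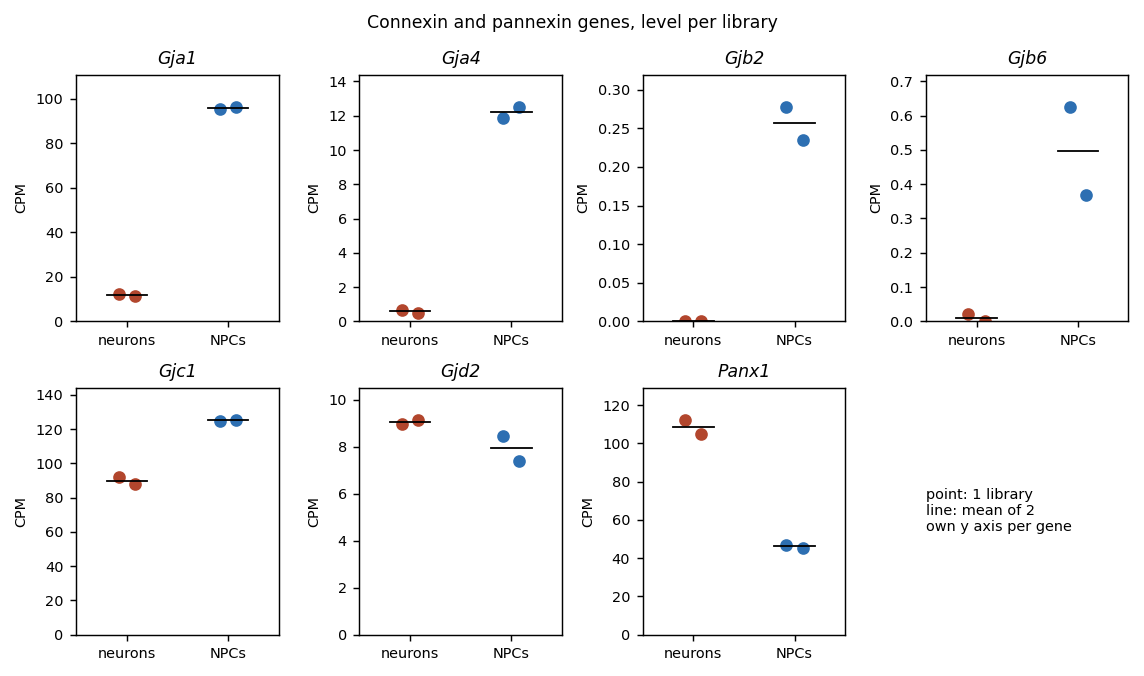
Level of each of the 7 genes in each library, in CPM on a linear axis from 0 that differs between genes, with neurons left of NPCs, a point for each library and a line for the mean of 2. Panx1 lay above 100 CPM in both neuron libraries and below 50 CPM in both NPC libraries, while Gja1 lay near 12 CPM in neurons and above 95 CPM in NPCs.

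Gja1 encodes connexin 43, the connexin best known from radial glia and astrocytes. It was at 12.3 and 11.4 CPM in neurons, against 95.3 and 96.4 CPM in NPCs. The neuron libraries were both low and the NPC libraries both high, with a gap far wider than the distance between duplicates. The log2 change was -3.01 ± 0.07 (edgeR adjusted p = 1.99e-15). A change this large in the same direction was uncommon, since 3.81% of all genes tested were called with at least 8-fold higher levels in NPCs. The counts behind it were 1193 over the neuron libraries and 11239 over the NPC libraries. Radial glia markers moved the same way: 10 of 10 were lower in neurons, and their summed level was 625 and 641 CPM in neurons, against 3361 and 3349 CPM in NPCs. Their part in the Gja1 result was not tested.

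Gja4 encodes connexin 37, known mainly from the endothelium of arteries. Its level was 0.696 and 0.504 CPM in neurons, against 11.9 and 12.5 CPM in NPCs. Neuron libraries held 60 counts in all and NPC libraries 1432, so the neuron level is low but was measured in both libraries. The log2 change was -4.35 ± 0.17 (edgeR adjusted p = 7.15e-13). Endothelial markers were lower in neurons for 14 of 14 genes. Their summed level was 15.7 and 15.1 CPM in neurons, against 330 and 337 CPM in NPCs, and none was at 0 over the libraries of a group. Cldn5, a tight junction gene of brain endothelium, was at 0.983 and 1.26 CPM in neurons, against 47.5 and 45.8 CPM in NPCs. Endothelial transcripts were therefore present in the NPC libraries beside progenitor transcripts. Mural cell markers were also lower in neurons for 8 of 9 genes tested. Their summed level was 12.3 and 12.4 CPM in neurons, against 237 and 244 CPM in NPCs. The part of endothelial and mural cells in the Gja4 and Gja1 results was not tested. In libraries of whole sorted populations, fewer cells of a type and less RNA per cell cannot be told apart. Of 4 arterial markers tested, 3 were lower and 1 was higher in neurons. Among the 3, Sema3g had counts of 0 and 3.06 in neurons, against 31.8 and 20.5 in NPCs. It passed the filter through its NPC libraries alone, so its direction was fixed in advance. The Notch ligand gene Dll4 was at 1.11 and 1.01 CPM in neurons, against 9.26 and 9.38 CPM in NPCs. Efnb2, an ephrin ligand gene that neurons also use, was at 224 and 241 CPM in neurons, against 134 and 135 CPM in NPCs.

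The upstream sequences of the genes with the strongest falls at well-measured levels, Gja1 and Gja4, and of the riser Panx1 are shown so that the opposite movements can be set beside the DNA next to each start. They are the 250 bases before the start in RefSeq's GRCm38.p6 table, 5′ to 3′ on the strand of the gene. Positions are of that build and not of the build of the counts. The sequences lie at chr10:56377050-56377299 (plus strand) for Gja1, chr4:127314040-127314289 (minus strand) for Gja4 and chr9:15045479-15045728 (minus strand) for Panx1. As a check of start and strand, bases just after each start were sought in GENCODE transcripts of the gene. They were found for Gja4 and Panx1 but not for Gja1, whose start this check did not bear out. Capitals mark matches to any of 5 motifs, searched on both strands.
Gja1: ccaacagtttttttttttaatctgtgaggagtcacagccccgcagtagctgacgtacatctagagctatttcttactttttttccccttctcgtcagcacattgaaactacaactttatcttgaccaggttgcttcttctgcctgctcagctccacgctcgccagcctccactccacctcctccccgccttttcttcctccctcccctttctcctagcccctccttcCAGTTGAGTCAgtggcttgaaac
Gja4: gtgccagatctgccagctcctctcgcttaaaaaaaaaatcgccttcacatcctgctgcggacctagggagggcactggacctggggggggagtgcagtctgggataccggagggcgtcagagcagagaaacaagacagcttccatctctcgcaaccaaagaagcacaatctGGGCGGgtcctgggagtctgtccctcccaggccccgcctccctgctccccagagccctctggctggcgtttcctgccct
Panx1: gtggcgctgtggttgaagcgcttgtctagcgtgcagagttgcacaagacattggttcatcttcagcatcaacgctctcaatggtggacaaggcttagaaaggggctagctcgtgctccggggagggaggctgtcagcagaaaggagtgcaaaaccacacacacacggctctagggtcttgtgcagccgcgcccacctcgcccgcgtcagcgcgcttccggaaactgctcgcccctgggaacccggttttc
The motifs were the AP-1 site TGANTCA, the GC box GGGCGG, the TATA box TATAAA, the E-box CAGNTG and the cyclic AMP response element TGACGTCA. Gja1 held 1 AP-1 match that overlaps 1 E-box match, Gja4 held 1 GC box and Panx1 held none of the 5. Among 32851 promoters of the same length, 6.75% held the AP-1 letters, 44.8% the E-box letters and 32.7% the GC box letters, while 12.4% held the TATA box and 1.55% the cyclic AMP element. These matches describe letters and not bound sites. Gjc1 was the 1 gene of the 7 with no entry in the promoter table.

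Gjb2 and Gjb6 encode connexin 26 and connexin 30, which are known from the inner ear, the leptomeninges and, for Gjb6, mature astrocytes. Both were close to the limit of detection. Gjb2 had counts of 0 and 0 in neurons, against 16 and 14 in NPCs. Zero counts over the neuron libraries allow up to 0.0299 CPM (3 counts), so Gjb2 was at least 8.57-fold lower in neurons when set against that limit. With the counting error of both groups, the lower end of the exact 95% interval was 6.55-fold. Gjb6 had counts of 1 and 0 in neurons, against 36 and 22 in NPCs. The NPC to neuron ratio of Gjb6 was 49.7, with an exact 95% interval from 8.57 to 1996 that covers counting error only. Both genes were called (edgeR adjusted p = 0.000271 for Gjb2 and 3.78e-05 for Gjb6), but a gene that passes the filter only where it is high had to differ, and these calls are given as a description. Gjb2 and Gjb6 lie close together on the chromosome in GENCODE, with 1 annotated coding gene between them, and Gja3 is the neighbour on the other side of Gjb2. Gja3 had no count in any library.
Markers of meningeal fibroblasts were lower in neurons for 9 of 10 genes tested, with a summed level of 5.73 and 5.40 CPM in neurons, against 50.5 and 51.0 CPM in NPCs, and none was at 0 over the libraries of a group. Some of the 9, such as Aldh1a2 (counts of 0 and 1 in neurons, against 26 and 30 in NPCs), passed the filter through NPC libraries alone. The collagen gene Col3a1 was at 1.11 and 1.01 CPM in neurons, against 19.4 and 21.4 CPM in NPCs. The part of these cells in the Gjb2 and Gjb6 counts was not tested.

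Gjc1 encodes connexin 45, which is widely used in embryonic tissues. Its level was 91.8 and 87.9 CPM in neurons, against 125 and 125 CPM in NPCs. The groups were much farther apart than the duplicates of either, yet the neuron level was 0.718 of the NPC level, against 0.124 for Gja1. The log2 change was -0.48 ± 0.05 (edgeR adjusted p = 5.94e-07). With library size as the only scaling it was -0.69, while the median of all genes tested also shifted, to -0.23 with library size only, against -0.02 with TMM factors.

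Gjd2 encodes the main connexin of electrical synapses between neurons, known in the mature cortex from interneurons. It was at 9.00 and 9.14 CPM in neurons, against 8.46 and 7.42 CPM in NPCs. Neuron libraries were slightly higher, but the NPC duplicates lay farther apart than the nearest libraries of the groups. The log2 change of 0.19 ± 0.11 did not pass (edgeR adjusted p = 0.134), with a 95% interval from -0.05 to 0.43, and with library size as the only scaling it was -0.015. The upper end of that interval is a rise of 1.35-fold. Interneuron markers went both ways, 3 higher in neurons, 3 higher in NPCs and 3 not called. Of all genes tested, 35.8% were called higher in neurons and 36.9% higher in NPCs. The summed levels of the interneuron markers were 180 and 193 CPM in neurons, against 187 and 182 CPM in NPCs. In GENCODE, the antisense gene A530058N18Rik overlaps Gjd2. The use of strand in counting is not given in the sources used here, so reads of Gjd2 and A530058N18Rik cannot be told apart.

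Panx1 was the 1 gene of the 7 called higher in neurons. Its level was 112 and 105 CPM in neurons, against 47.1 and 45.2 CPM in NPCs. Both neuron libraries lay above both NPC libraries, by far more than the distance between duplicates. The log2 change was 1.23 ± 0.06 (edgeR adjusted p = 1.02e-11). Of all genes tested, 11.5% were called at least 2-fold higher in neurons. Neuron markers moved with it: 9 of 10 were higher in neurons, and their summed level was 8009 and 8175 CPM in neurons, against 1922 and 1937 CPM in NPCs. The neuron-specific tubulin gene Tubb3 was at 3762 and 3842 CPM in neurons, against 983 and 971 CPM in NPCs. Their part in the Panx1 result was not tested.

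**Figure D2:**
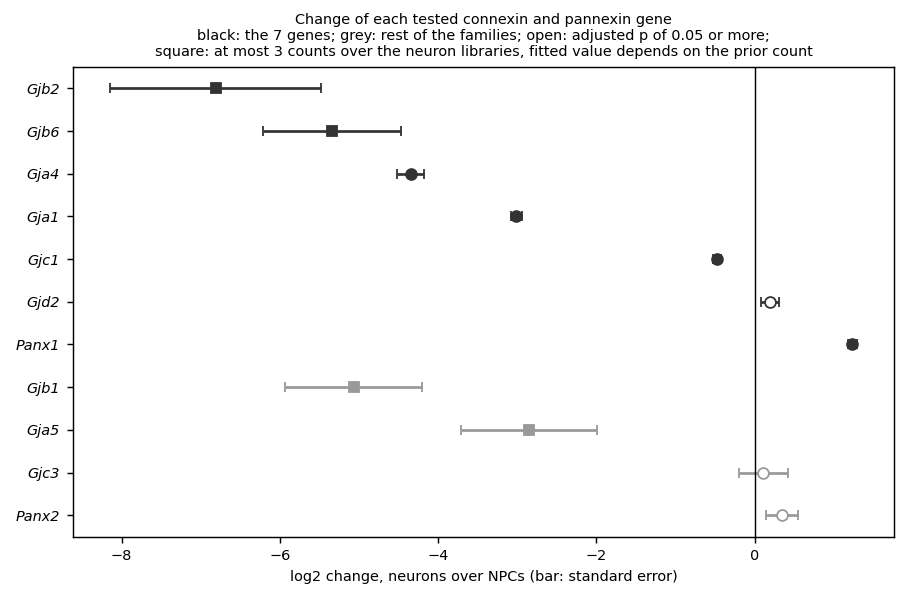
Log2 change of neurons over NPCs for the 11 connexin and pannexin genes that were tested, with the standard error as bar, black for the 7 genes and grey for the rest of the families. Panx1, at 1.23, was the 1 gene called to the right of 0, and squares mark genes with at most 3 counts over the neuron libraries, whose fitted values depend on the prior count.

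Levels of different genes were compared as CPM per kilobase of the principal GENCODE transcript. In neurons the order was Gjc1 at 38.8, Panx1 at 18.9, Gja1 at 3.74, Gjd2 at 3.15, Gja4 at 0.356, Gjb6 at 0.00486 and Gjb2 at 0 CPM per kilobase. In NPCs the order was Gjc1 at 54.0, Gja1 at 30.1, Panx1 at 8.05, Gja4 at 7.24, Gjd2 at 2.76, Gjb6 at 0.236 and Gjb2 at 0.107 CPM per kilobase. Gjc1 thus led in both groups, and the gene after it was Panx1 in neurons and Gja1 in NPCs. The closest neighbours were Panx1 and Gja4 in NPCs, at 8.22 and 7.88 CPM per kilobase for Panx1, against 7.05 and 7.43 CPM per kilobase for Gja4. Those libraries did not overlap, and neither did those of any other neighbours in either order except Gjb6 and Gjb2 in neurons. The order in neurons depended on the length used. With the summed length of all annotated exons, Panx1 (18.6 and 17.4 CPM per kilobase) and Gjc1 (18.3 and 17.6 CPM per kilobase) overlapped, and Gjd2 (3.15) came before Gja1 (1.16).

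Of the other 16 connexin and pannexin genes, 12 did not pass the low-count filter, with at most 14 counts in a library, and 4 of the 12 had none in any library, which allows up to 0.0138 CPM over the 4 libraries. The other 4 were tested. Gjb1, a connexin gene of myelinating cells, had counts of 0 and 1 in neurons, against 21 and 27 in NPCs, a NPC to neuron ratio of 41.1 with an exact 95% interval from 7.04 to 1658. Gja5, which is known with Gja4 from arteries, had counts of 3 and 0 in neurons, against 12 and 15 in NPCs. Its NPC to neuron ratio was 7.71, with an interval from 2.37 to 39.7. The Gja5 call was lost with DESeq2 (adjusted p = 0.0569) and without neuron replicate 2 (edgeR adjusted p = 0.0567). Like Gjb2, both genes passed the filter through their NPC libraries alone. Oligodendrocyte precursor markers were lower in neurons for 7 of 7 genes, with summed levels of 2.96 and 3.86 CPM in neurons, against 181 and 187 CPM in NPCs. In that list, Nkx2-2 had counts of 0 and 1 in neurons, against 34.1 and 50.8 in NPCs. Sox10 had counts of 5 and 7 in neurons, against 469 and 510 in NPCs. Both passed the filter through their NPC libraries alone, so their direction was fixed in advance. The part of these markers in the Gjb1 counts was not tested. Gjc3, another connexin gene of glia, was at 0.778 and 0.988 CPM in neurons, against 0.927 and 0.720 CPM in NPCs, and its groups overlapped. The log2 change of Gjc3 was 0.11 ± 0.30 (edgeR adjusted p = 0.759). Panx2, a paralog of Panx1, was at 2.19 and 2.91 CPM in neurons, against 1.93 and 2.09 CPM in NPCs. Its log2 change of 0.34 ± 0.20 did not pass (edgeR adjusted p = 0.138), with a 95% interval from -0.09 to 0.77, but passed without neuron replicate 1, at 0.54 (edgeR adjusted p = 0.0324).

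Proteins that bind, modify or transport connexins went both ways. Neurons had the higher level for 10 of 19 genes tested and NPCs for 6, beside 35.8% and 36.9% of all genes tested. The other 3 did not pass, and the median log2 change was 0.21, against -0.02 for all genes tested. With library size as the only scaling, 7 were called higher in neurons and 7 higher in NPCs. Tjp1, which encodes the scaffold ZO-1 that binds the tail of connexin 43, was at 17.4 and 16.6 CPM in neurons, against 50.7 and 49.0 CPM in NPCs. The groups of Tjp1 lay well apart (log2 change -1.55 ± 0.07, edgeR adjusted p = 3.90e-12). The caveolin gene Cav1 (-2.23 ± 0.11), picked out after its values were seen, fell as well. Ezr, which encodes the membrane linker ezrin, had a log2 change of -1.20 ± 0.05. Nedd4, which encodes a ubiquitin ligase that acts on connexin 43, was the member of this list with the highest CPM, at 1173 and 1250 CPM in neurons, against 2097 and 2187 CPM in NPCs. In the other direction, the protein kinase C gene Prkce was at 47.1 and 54.9 CPM in neurons, against 12.1 and 12.8 CPM in NPCs. Cnst, which encodes the connexin trafficking receptor consortin and was also picked out after its values were seen, had a log2 change of 1.00 ± 0.06. Cav1 and Tjp1 are also known from endothelium, whose markers were at 330 and 337 CPM in NPCs in sum, and their part in these changes was not tested.

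Genes of extracellular ATP and adenosine signalling were mostly lower in neurons. The list holds receptors and enzymes downstream of channels such as Panx1, and the transporter gene Slc17a9. Neurons had the higher level for 5 of 21 genes tested and NPCs for 14, beside 35.8% and 36.9% of all genes. The median log2 change was -1.64. Among the 14, P2rx1 (counts of 2 and 0.307 in neurons, against 54.0 and 31.2 in NPCs) passed the low-count filter through its NPC libraries alone. Its direction was thus fixed in advance. With a mean of at least 1 CPM, which tests fewer genes, 2 were called higher in neurons and 9 in NPCs. Adora2a, an adenosine receptor gene, was at 0.287 and 0.465 CPM in neurons, against 5.46 and 5.70 CPM in NPCs. Entpd1, which encodes an enzyme that degrades extracellular ATP, was at 2.74 and 2.18 CPM in neurons, against 9.00 and 9.99 CPM in NPCs. Adora1, the receptor gene with the highest CPM of the list, went the other way. It was at 17.2 and 18.2 CPM in neurons, against 5.14 and 5.13 CPM in NPCs, with 1.78 ± 0.10 as its log2 change (edgeR adjusted p = 9.12e-11). The ATP-gated channel genes P2rx7 and P2rx2, picked out after their values were seen, were called in opposite directions. P2rx7 was at -4.01 ± 0.32 and P2rx2 at 2.54 ± 0.21 on the log2 scale. Several genes of this list, such as P2ry12, are known from microglia. Microglia markers were lower in neurons for 10 of 10 genes, with summed levels of 21.1 and 21.2 CPM in neurons, against 43.6 and 44.3 CPM in NPCs, and none was at 0 over the libraries of a group. The microglia markers had a median log2 change of -1.06, against -1.64 for the ATP and adenosine genes, and their part was not tested. P2ry12, also picked out after its values were seen, was at 5.55 and 4.43 CPM in neurons, against 11.5 and 11.6 CPM in NPCs.

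Other large-pore channels went both ways. Neurons had the higher level for 2 of 7 genes tested and NPCs for 2, beside 35.8% and 36.9% of all genes tested. The other 3 did not pass, and the median log2 change was 0.18. Genes of the volume-regulated anion channel split. Lrrc8d, the subunit gene with the highest CPM, was at 90.7 and 97.7 CPM in neurons, against 66.2 and 69.8 CPM in NPCs. Lrrc8a, the obligatory subunit, had a log2 change of 0.34 ± 0.08, which was 0.14 and no longer called with library size as the only scaling (edgeR adjusted p = 0.137). Lrrc8c was at 4.41 and 4.56 CPM in neurons, against 13.2 and 12.7 CPM in NPCs, a log2 change of -1.53 ± 0.11 (edgeR adjusted p = 2.05e-09).

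**Figure D3:**
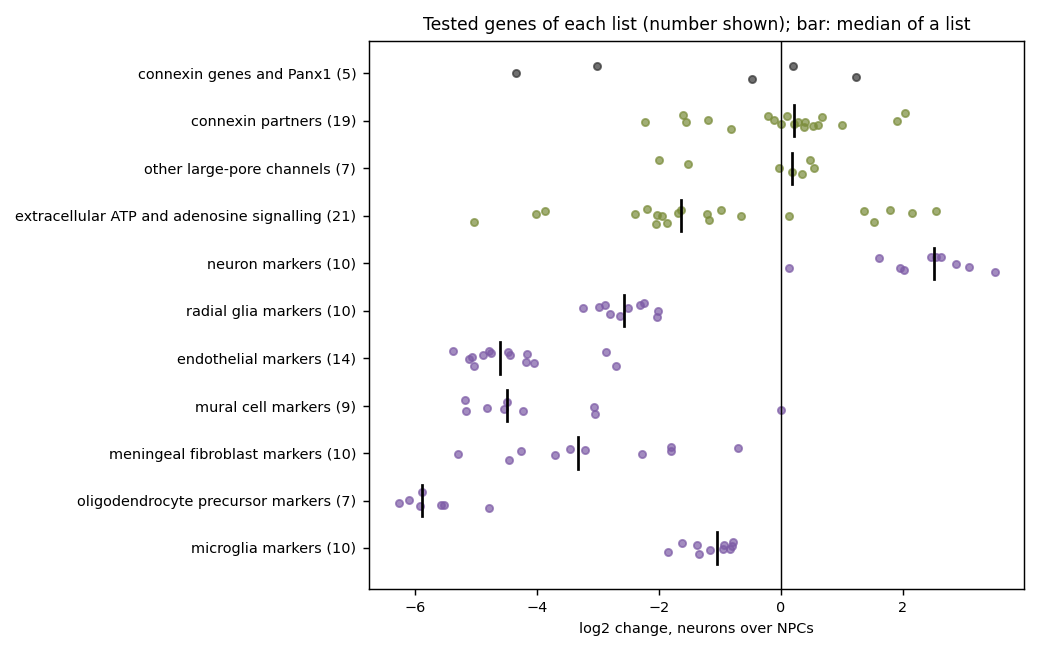
Log2 change of neurons over NPCs for each tested gene of 11 lists, with the number of genes shown in brackets and a bar at the median of each list but the first, from which Gjb2 and Gjb6 are left out for their low counts. Genes of similarly low counts in the other lists, such as Nkx2-2 and Aldh1a2, are kept. The oligodendrocyte precursor median of -5.89 is the value of Nkx2-2, which depends on the prior count. Panx1 and Gjd2 lie right of 0 and Gjc1, Gja1 and Gja4 left of it, where the endothelial markers have a median of -4.61 and the radial glia markers one of -2.58.

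For each of the 7 genes, those of most similar pattern were sought among genes with a mean CPM within 2-fold of it, by the Euclidean distance between log2 CPM profiles centred over the 4 libraries. The nearest to Gja1 were Gas1 (distance 0.0943) and 1190002H23Rik (0.0955), with 9 genes within 0.25. The nearest to Gja4 were Fzd6 (0.156) and the endothelial marker Emcn (0.210), with 7 within 0.25. Gas1 was at 20.3 and 19.6 CPM in neurons, against 170 and 171 CPM in NPCs, and Emcn at 0.521 and 0.388 CPM in neurons, against 7.85 and 8.36 CPM in NPCs. The candidates numbered 4759 for Gja1 and 2477 for Gja4, so few of them lay close to either. Panx1 had Fbxo25 (0.0345) and Stau2 (0.0425) nearest, with 139 of 4317 within 0.25. Gjc1 had Tpi1 (0.0244) and Ubxn2a (0.0276), with 418 of 3627. Gjd2 had Pbx4 (0.0253) and 6530402F18Rik (0.0480), with 331 of 2820. The patterns of Gjc1 and Gjd2 were thus common ones. Akr1c14 (0.0749) and Sntb1 (0.0822) were nearest to Gjb2, with 7 of 574 within 0.25, and both had no count in neurons. Gngt2 (0.332) and Irx3 (0.346) were nearest to Gjb6, with 0 genes within 0.25.

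**Figure D4:**
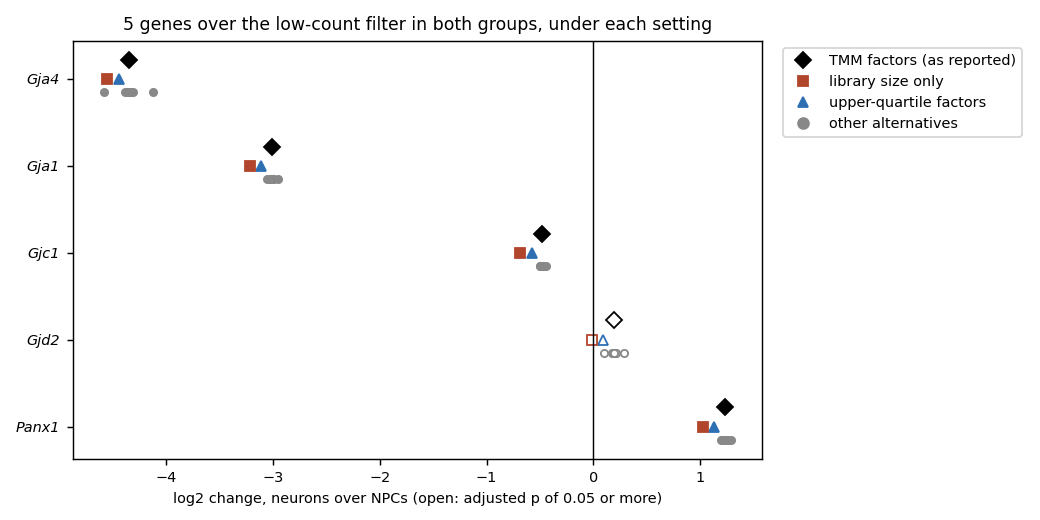
Log2 change of neurons over NPCs for the 5 genes that passed the low-count filter in both groups, under TMM factors (diamonds) and each of 12 alternatives, with open symbols where the adjusted p was 0.05 or more. Gja4, Gja1, Gjc1 and Panx1 kept their side of 0 under each of these alternatives, and Gjd2 lay between -0.02 and 0.29.

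The sort was checked on the reporter genes, which is no finding. Nes was at 33.1 and 36.4 CPM in neurons, against 103 and 97.8 CPM in NPCs, and Dcx at 1358 and 1441 CPM in neurons, against 468 and 493 CPM in NPCs. Libraries held 52611828 to 55615142 counts. Mural cell markers (8 of 9 tested lower in neurons) and erythroid markers (5 of 5) moved with the endothelial ones. In contrast, 3 of 3 Cajal-Retzius markers tested were higher in neurons. Of 2 choroid plexus markers tested, 1 was lower in neurons and 1 was not called. The lower one, Otx2, had counts of 1 and 0 in neurons, against 14 and 13 in NPCs. It passed the filter through its NPC libraries alone. So did Des of the mural cell list, Sema3g of the arterial list, and Nkx2-2 and Sox10 of the oligodendrocyte precursor list. The direction of such calls was fixed in advance. Intermediate progenitor markers were lower in neurons for 7 of 7.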

How the data were processed

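Total RNA of sorted cells was sequenced after an Illumina TruSeq preparation, per the labels' protocols. The authors deposited 1 table of estimated counts per gene and library, not scaled between libraries. The deposited values were multiples of 1 base of a 101-base read (65205 of 65205 checked, within 0.01 base). The submitters' processing notes name TopHat 1.2.0, SAMtools 0.1.18, CASAVA 1.9 and build mm9, without their roles. Which counting tool, annotation or strand setting was used is not given in the sources. Lengths and neighbours come from GENCODE M21 (GRCm38) and promoters from RefSeq, matched by symbol.

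Counts were rounded, filtered with filterByExpr (10 counts, 0.184 CPM, in 2 libraries), scaled with TMM factors of 0.928, 0.933, 1.08 and 1.07 (neuron 1 and 2, NPC 1 and 2) and tested in edgeR 4.0.16 (R 4.3.3) without pairing, two-sided, with Benjamini-Hochberg adjustment at 0.05. Standard errors were derived from the F statistic. The biological coefficient of variation was 4.89%. Alternatives used DESeq2 1.42.0 and limma 3.58.1. Duplicates differed by more than sampling noise (chi-square per gene 14.2 for neurons and 4.58 for NPCs), so both were kept. Counts for 15080 genes were also simulated, from the NPC means for all libraries and with 1 fixed spread for every gene. With 50 genes changed at each size, the test found 24 at 1.25-fold, 42 at 1.5-fold, 45 at 2-fold and all 50 at 4-fold. It made 9 false calls among 170. Far fewer genes were changed there than were called in the data, so these rates need not hold for the real comparison.

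Members and lists were chosen with earlier results of these data known. Of 186 list entries, 185 were found, 4 under another symbol. Named genes were all members, Nes and Dcx, every other tested family gene, the 3 partner, channel or ATP list genes of smallest p and the 1 of highest CPM, 1 marker of each kind per cell type list, and the 2 nearest patterns of each member. Not all are printed. Some genes are not reported here.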

Additional observations from a re-analysis of the deposited data

How the results depend on the processing

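Gja1, Gja4, Gjc1 and Panx1 kept their direction and their call under each of 12 alternatives. Gjb2 and Gjb6 did so under 11, and a mean of 1 CPM leaves both out. That is no support for these 2 genes, since they passed the filter only through the group where they are high. Log2 changes ranged from -3.22 to -2.95 for Gja1, -4.58 to -4.12 for Gja4, -0.69 to -0.44 for Gjc1 and 1.03 to 1.29 for Panx1. Gjd2 turned to -0.015 with library size only and was not called under any alternative (adjusted p from 0.107 to 0.909). With library size only, Gjc3 (-0.097), Pbx4 (-0.032) and 6530402F18Rik (-0.055) also turned sign. Neurons had the higher level for 49.2% of called genes with TMM factors and for 33.5% with library size only. Upper-quartile factors moved the median of all genes to -0.12. When a library was left out, Gjc3 ranged from -0.071 (without neuron replicate 2) to 0.29, and was below 0 without NPC replicate 2 as well (-0.057). The choroid plexus gene Ttr ranged from -0.48 to 0.31 and was above 0 without the same libraries. With 1 library left in a group, it was assumed to vary like the other group. With library size only, large-pore channels numbered 1 higher in neurons and 3 higher in NPCs. With a mean of 1 CPM, those higher in NPCs numbered 1. Connexin partners numbered 7 higher in neurons and 7 higher in NPCs with library size only, and 8 and 7 with upper-quartile factors. ATP and adenosine genes numbered 2 higher in neurons and 9 higher in NPCs with a mean of 1 CPM, which tests fewer genes. For other changes the cause was not tested. The replicate numbers share only a number in the labels. Same-numbered deviations had a correlation across genes of 0.04, and with the replicate block 11206 genes were called, against 11108 without it. Of 591 alternative values of 50 other named genes, 580 kept direction and call. Gjb2 and Gjb6, with at most 36 counts in a library, are limited by depth.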
